A study of Mus musculus with 48 samples.

Results

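The genes described here are 10 imprinted genes, taken by symbol from the 42713 genes of the deposited tables: Peg10, Sgce, Dlk1, Meg3, Rian, Mirg, H19, Nnat, Plagl1 and Peg3. All 10 were found, each under 1 gene identifier. They were followed across cell type, treatment and time of day in 2 hormone cell types sorted from mouse islets, the α cells of glucagon and the β cells of insulin. The 4 conditions were β cells of doxycycline mice, β cells of control mice, α cells of doxycycline mice and α cells of control mice, each with 12 libraries of polyA RNA. These were 2 libraries at each of zeitgeber times (ZT) 0, 4, 8, 12, 16 and 20, the hours of the light cycle. The series asks how the circadian clock bears on islet cells after a massive loss of β cells.

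All animals, controls included, were males of 6 to 8 weeks with the same transgenes. ProGcg-Venus and RIP-Cherry are fluorescent reporters of α and β cells, and PER2::Luc is a luciferase fusion of a clock protein. Insulin-rtTA and TET-DTA together let doxycycline switch on diphtheria toxin A in cells that use the insulin promoter. Doxycycline mice drank 300 mg of doxycycline in water with 2% sucrose, and control mice drank sucrose water alone. Both were held in 12 h of light and 12 h of dark with food at night from 10 days before sampling. Part of the animals had been shifted to an inverted cycle for 2 weeks. The labels do not say which libraries came from them, and the part of this shift in the rhythms below was not tested. With food at night in both treatments, effects of light and of feeding cannot be told apart. No group received doxycycline without the toxin gene, so the effects of the drug and of β-cell loss cannot be told apart. β cells of doxycycline mice are those that were still sorted as β cells after the ablation. The labels do not say that libraries of a group came from separate animals, so p-values measure the spread between these libraries only.

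Imprinted genes are transcribed mainly from 1 parental allele, chosen by DNA methylation laid down in the egg or sperm and kept through every cell division. Many of them sit in clusters in which a maternally expressed noncoding RNA lies beside paternally expressed protein genes, and many act on fetal growth, placenta and metabolism. In human islets the DLK1-MEG3 cluster is best known for its activity in β cells, and extra PLAGL1 expression is linked to transient neonatal diabetes. The RNA here was counted over both alleles, so no value below speaks of which allele was read.

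The 10 genes fall into 6 regions of the mouse genome (GRCm38). Peg10, a gene derived from a retrotransposon and needed for the placenta (chr6:4747306-4760517), and Sgce, which codes for ε-sarcoglycan (chr6:4674350-4747207), are paternally expressed and start 99 bases apart on opposite strands. Dlk1 (chr12:109452823-109463336) codes for a transmembrane protein related to Notch ligands and is paternally expressed. It is followed on the same strand by 3 maternally expressed noncoding RNAs, Meg3 (chr12:109541001-109571726), Rian (chr12:109603940-109661716) and Mirg (chr12:109729764-109749460). Rian is a host of small nucleolar RNAs and Mirg of microRNAs, and the RefSeq miRNA table places 14 hairpins inside Mirg, 3 inside Rian and 1 inside Meg3. H19, a maternally expressed noncoding RNA, lies at chr7:142575529-142578143. Nnat, a small membrane protein of the endoplasmic reticulum (chr2:157560078-157562522), Plagl1, a zinc finger transcription factor (chr10:13060504-13131694), and Peg3, a large zinc finger protein (chr7:6703892-6730431), are paternally expressed.

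Promoter windows were taken from RefSeq (GRCm38.p6) and matched 7 of the 10 genes, with none for Peg10, Sgce and H19. The 250 bases before the start are shown for the genes on which the results below turn: Meg3, which varied widely between libraries, Peg3, the most abundant, and Dlk1 and Nnat, which moved most with doxycycline in β cells. Capitals mark the cAMP response element TGACGTCA and the hexamer TGCCGC or its complement GCGGCA, the core of the ZFP57 binding site at methylated imprinted loci; the 250 bases shown for Dlk1 and Nnat hold neither.

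Meg3 (chr12:109540746-109540995, plus strand): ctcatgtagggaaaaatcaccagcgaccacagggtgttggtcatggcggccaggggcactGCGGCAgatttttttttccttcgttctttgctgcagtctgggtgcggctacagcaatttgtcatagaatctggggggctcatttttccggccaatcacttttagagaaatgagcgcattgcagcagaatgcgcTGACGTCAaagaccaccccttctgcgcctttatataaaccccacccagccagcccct

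Peg3 (chr7:6730420-6730669, minus strand): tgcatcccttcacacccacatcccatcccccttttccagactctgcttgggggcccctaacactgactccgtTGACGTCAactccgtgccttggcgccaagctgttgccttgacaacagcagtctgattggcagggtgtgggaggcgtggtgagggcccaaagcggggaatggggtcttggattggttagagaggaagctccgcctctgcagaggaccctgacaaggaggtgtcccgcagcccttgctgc

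Dlk1 (chr12:109452573-109452822, plus strand): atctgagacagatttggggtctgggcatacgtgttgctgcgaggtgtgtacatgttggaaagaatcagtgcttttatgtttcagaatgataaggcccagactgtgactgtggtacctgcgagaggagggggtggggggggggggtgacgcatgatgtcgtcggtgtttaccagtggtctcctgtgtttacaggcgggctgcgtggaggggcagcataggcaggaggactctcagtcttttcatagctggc

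Nnat (chr2:157559828-157560077, plus strand): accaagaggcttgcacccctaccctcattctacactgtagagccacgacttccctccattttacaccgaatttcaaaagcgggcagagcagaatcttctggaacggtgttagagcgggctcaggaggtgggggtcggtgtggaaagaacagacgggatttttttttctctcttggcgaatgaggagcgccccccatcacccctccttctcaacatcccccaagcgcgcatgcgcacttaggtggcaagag

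In windows of 250 bases before and 50 bases after the start, searched on both strands, TGACGTCA was found at 1.79% of 32851 RefSeq promoters, and among the imprinted genes at Meg3 and Peg3. The E-box CACGTG, which clock activators bind, was found at 7.15% of promoters and here at Plagl1. TGCCGC or GCGGCA was found at 11.6% of promoters and here at Meg3, Plagl1 and Nnat, where it lies after the start and so outside the letters shown. The motifs do not overlap each other in these windows. Meg3 had a second window (chr12:109545148-109545447), which held none of these motifs. The window of Plagl1 (chr10:13090582-13090881) lies inside the span of the gene given above. A match describes letters only.

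Libraries held 16.1 to 69.9 M (mega) estimated counts. By the run label in their titles, 20 libraries came from an earlier sequencing run (16.1 to 28.6 M) and 28 from a later one (37.4 to 69.9 M). From ZT4 to ZT20 every replicate 1 is from the earlier run and every replicate 2 from the later, while ZT0 is of the later run alone. The labelled cell types matched their markers: summed over 10 β-cell genes, the level was 216342 to 435854 CPM (counts per M of the library, scaled by TMM) in β libraries and 1023 to 4794 CPM in α libraries. Summed over 7 α-cell genes it was 348 to 3778 CPM in β libraries and 229259 to 462209 CPM in α libraries. α libraries also held 22088 to 58784 CPM of 6 δ-, PP- and ε-cell markers.

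Levels of different genes were compared per length, in RPKM (counts per kilobase of the gene and per M of the library). Peg3 was the most abundant of the 10 in every condition, with 72.6 ± 16.2 RPKM in doxycycline β cells, 83.4 ± 20.2 in control β cells, 124 ± 42.6 in doxycycline α cells and 109.7 ± 24.9 in control α cells (SD, n = 12 each). In control β cells it was followed by Nnat (14.8 ± 10.0 RPKM), Rian (9.21 ± 3.46) and Meg3 (6.43 ± 5.50), which overlapped within their spread, and by Plagl1 (1.29 ± 0.47) and Mirg (0.62 ± 0.49). In control α cells Peg10 came second (15.2 ± 5.18 RPKM), before Rian (9.63 ± 1.71), Meg3 (5.65 ± 5.32) and Sgce (4.51 ± 0.31), with libraries of Peg10, Rian and Meg3 overlapping. Sgce (4.07 to 5.21 RPKM) overlapped Meg3 (1.09 to 20.01 RPKM) and lay below Rian (6.73 to 11.6 RPKM) in every library. Plagl1 stood at 2.08 ± 0.61 RPKM and Nnat at 1.34 ± 0.61 there. Dlk1 averaged 0.19 ± 0.12 RPKM in control β cells and 0.16 ± 0.09 RPKM in control α cells.

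**Figure D1:**
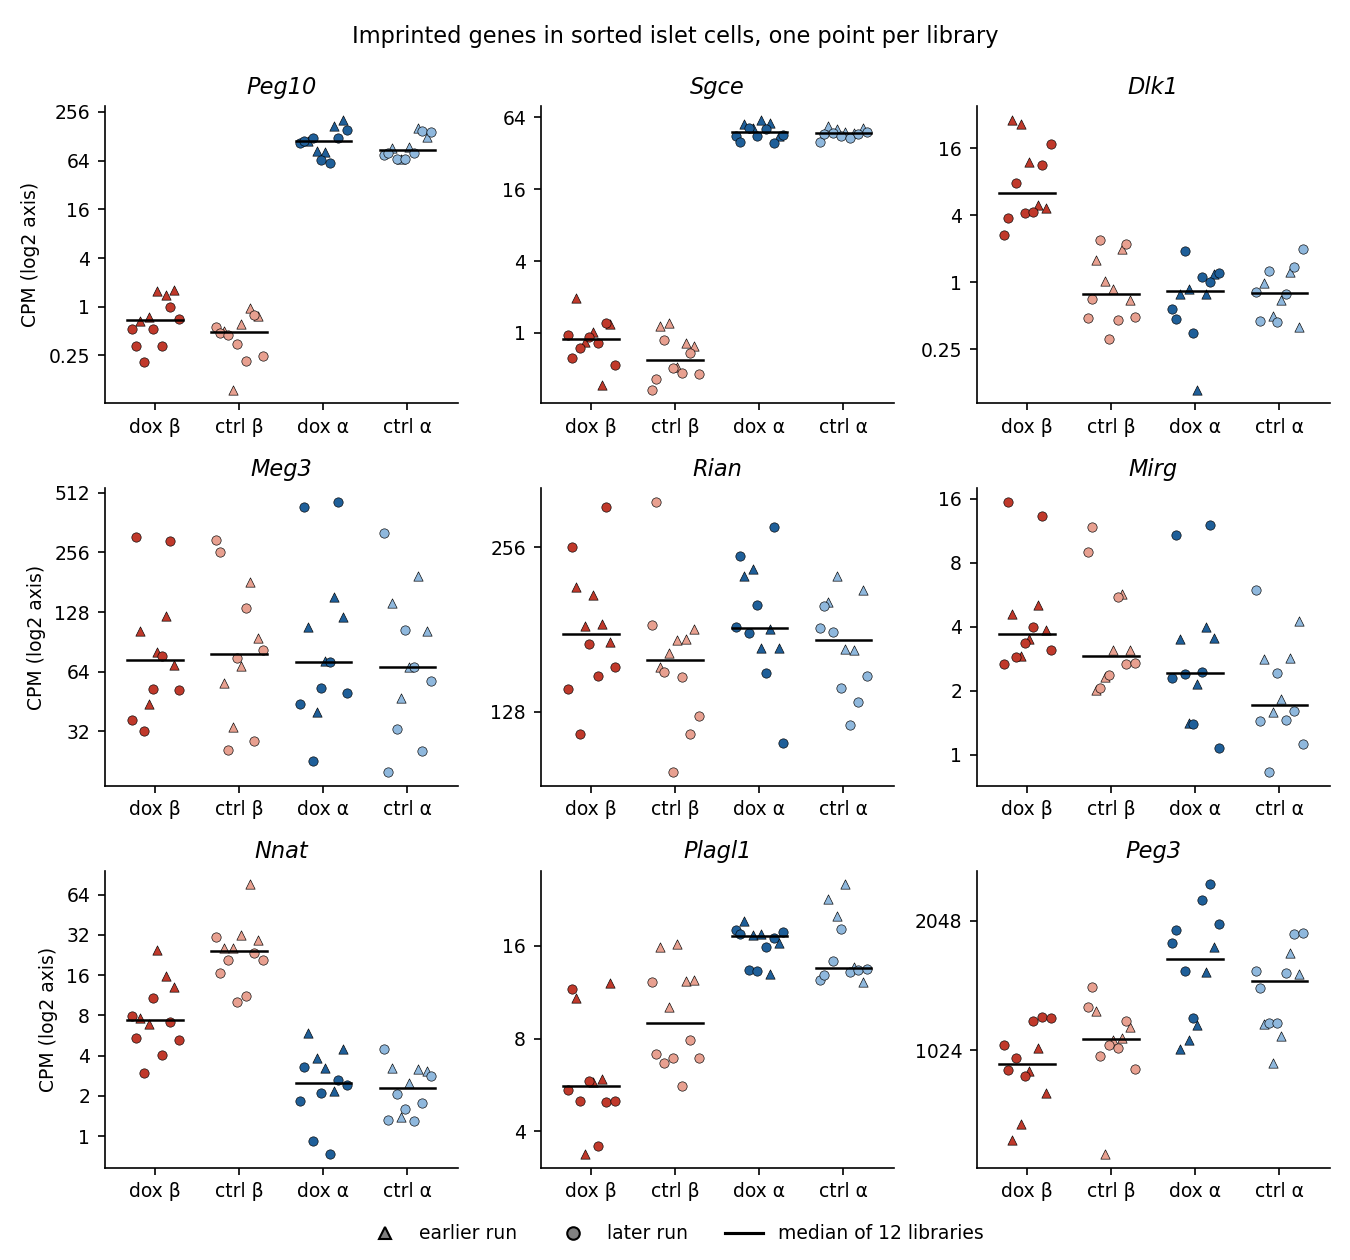
Level of 9 imprinted genes in each library (CPM, log2 axis), by condition from left to right: doxycycline β, control β, doxycycline α and control α cells, with triangles for the earlier run, circles for the later run and a line at the median of 12 libraries. Peg10 and Sgce of β and α cells do not overlap, and Dlk1 of doxycycline β cells lies above that of control β cells in every library.

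H19 was close to absent. It had no count in any of 12 doxycycline β libraries, a count in 1 of 12 control β libraries, in 2 of 12 doxycycline α libraries and in 2 of 12 control α libraries, and no library held more than 4 counts. Low counts step by 2 in these tables, so a count of 0 allows up to 6 counts (3 fragments), or 0.298 CPM in the shallowest doxycycline β library, which covers counting error only. H19 passed no filter on low counts, and the tests below cover the other 9 genes.

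The first comparison asks how islet β and α cells differ, in doxycycline and in control mice. Of the 9 tested genes, 6 differed in doxycycline mice (2 higher and 4 lower in β cells) and 6 in control mice (2 higher and 4 lower). Over all genes tested 71.2% were called in doxycycline mice (35.6% higher and 35.7% lower) and 71.4% in control mice (34.2% higher and 37.3% lower), so the counts are near the background and the sizes carry the description. The median log2 fold change of the 9 genes was -0.20 in doxycycline mice and -0.12 in control mice, against -0.01 and -0.03 over all genes. Markers of other cells moved with the cell type too, and their part in these results was not tested beyond the covariates given below. Macrophage and dendritic genes were higher in β cells for 15 of 15 in doxycycline mice (median 4.97) and 12 of 14 in control mice (median 2.98, 1 lower). Acinar genes were lower in β cells for 6 of 13 in doxycycline mice (median -1.94) and 13 of 13 in control mice (median -2.25), and stellate genes for 2 of 7 and 4 of 6.

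Peg10 and Sgce were well above the floor in α libraries and nearly absent from β libraries. Peg10 had 0.207, 0.678 and 1.59 CPM (lowest, median and highest of 12) in doxycycline β cells, against 60.7, 112 and 206 CPM in doxycycline α cells. In control mice it had 0.0934, 0.485 and 0.954 CPM in β cells, against 66.4, 86.1 and 164 CPM in α cells. The cell types did not overlap in either treatment. The log2 fold change was -7.28 ± 0.20 in doxycycline mice (SE, adjusted p = 2.18e-17) and -7.67 ± 0.14 in control mice (adjusted p = 1.44e-20). Sgce, which starts next to it, had 0.369, 0.888 and 1.98 CPM in doxycycline β cells, against 39.1, 48.3 and 61.0 CPM in doxycycline α cells. In control mice Sgce had 0.334, 0.600 and 1.21 CPM in β cells, against 39.6, 47.1 and 53.7 CPM in α cells. These groups did not overlap either, and its log2 fold change was -5.70 ± 0.15 in doxycycline mice (adjusted p = 1.19e-17) and -6.23 ± 0.12 in control mice (adjusted p = 2.62e-20). The mean of Peg10 in control β cells was 0.496% of that in α cells, and that of Sgce 1.45%. Among α-cell genes this share was 0.0562% for Gcg, 0.0866% for Irx1 and 5.85% for Ttr, so Peg10 and Sgce lay between them. The part of α-cell RNA in the β libraries was not tested. Nor was the part of δ-, PP- and ε-cell RNA in the α libraries. There the PP-cell gene Ppy had a median of 27779 CPM in doxycycline mice and 18869 CPM in control mice.

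Nnat went the other way. It had 2.96, 7.42 and 24.6 CPM in doxycycline β cells, against 0.731, 2.52 and 5.95 CPM in doxycycline α cells. In control mice it had 10.1, 24.3 and 76.8 CPM in β cells, against 1.29, 2.28 and 4.52 CPM in α cells. The cell types overlapped in doxycycline mice and did not in control mice. The log2 fold change was 1.70 ± 0.27 in doxycycline mice (adjusted p = 9.33e-06) and 3.33 ± 0.21 in control mice (adjusted p = 4.41e-12). The span of Nnat overlaps that of Blcap, which is read from the opposite strand. The kit does not mark strand, so reads of any shared exon could not be told apart, and overlap of exons was not checked.

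Plagl1 and Peg3 were lower in β cells of both treatments at all 6 times. Plagl1 had 3.37, 5.61 and 12.1 CPM in doxycycline β cells, against 12.9, 17.2 and 19.3 CPM in doxycycline α cells, with no overlap. In control mice the 2 cell types overlapped, at 5.60, 9.03 and 16.2 CPM in β cells and 12.2, 13.6 and 25.4 CPM in α cells. The log2 fold change was -1.36 ± 0.17 (adjusted p = 2.83e-07) in doxycycline mice and -0.73 ± 0.13 (adjusted p = 3.83e-05) in control mice. Peg3 had 633, 954 and 1224 CPM in doxycycline β cells, against 1028, 1671 and 2496 CPM in doxycycline α cells. In control mice it had 586, 1089.6 and 1441 CPM in β cells, against 955, 1486 and 1924 CPM in α cells. Its groups overlapped, with a log2 fold change of -0.75 ± 0.07 (adjusted p = 5.11e-09) in doxycycline mice and -0.40 ± 0.10 (adjusted p = 8.07e-04) in control mice.

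The genes of the Dlk1 to Mirg cluster did not move together between the cell types. Dlk1 had 2.67, 6.33 and 28.8 CPM in doxycycline β cells, against 0.108, 0.829 and 1.89 CPM in doxycycline α cells, with no overlap and a log2 fold change of 3.46 ± 0.39 (adjusted p = 7.68e-08). In control mice it had 0.308, 0.781 and 2.37 CPM in β cells, against 0.397, 0.805 and 1.98 CPM in α cells, and the difference of 0.09 ± 0.28 did not pass the test (95% interval up to 0.67). Mirg was higher in control β cells by 0.77 ± 0.26 (adjusted p = 0.0130), with 2.01, 2.91 and 11.7 CPM in β cells and 0.830, 1.72 and 5.96 CPM in α cells. In doxycycline mice its difference was 0.58 ± 0.30 (adjusted p = 0.0848), and with same-numbered α and β libraries of these mice as pairs (a block) the value was 0.60 (adjusted p = 6.16e-04). It also passed without any 1 of 4 libraries of doxycycline mice, ZT0 replicate 1 or ZT16 replicate 1 of β cells or ZT0 replicate 2 or ZT16 replicate 2 of α cells (adjusted p = 0.0255 to 0.0452). In control mice the call was lost with a covariate for stellate markers (0.12, adjusted p = 0.776) or acinar markers (0.48, adjusted p = 0.141) and within the earlier run (0.28, adjusted p = 0.416). Meg3 and Rian passed in neither treatment, with log2 differences of -0.20 ± 0.36 and -0.03 ± 0.13 in doxycycline mice and -0.01 ± 0.40 and -0.12 ± 0.10 in control mice. Without ZT0 the control difference of Rian was -0.20 (adjusted p = 0.0326), and without replicate 2 of ZT0 control β cells it was -0.19 (adjusted p = 0.0279). With the stellate covariate the control difference of Meg3 was -1.20 (adjusted p = 0.0473). Stellate sums in control mice were 0.424 to 53.3 CPM in β libraries and 34.5 to 109 CPM in α libraries. This covariate thus largely goes with the cell type, and its part in Meg3 and Mirg cannot be told apart from that of the cell type.

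**Figure D2:**
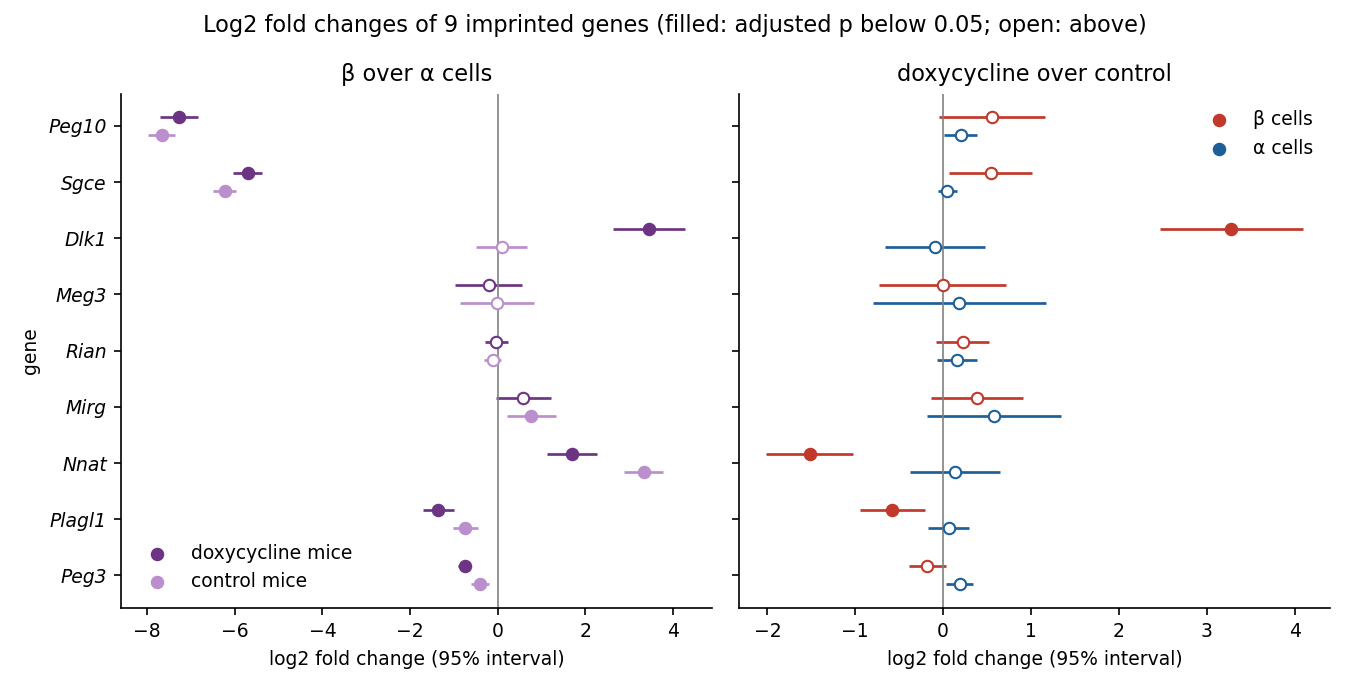
Log2 fold changes with 95% intervals of 9 imprinted genes for β over α cells (left, doxycycline mice above control mice) and for doxycycline over control (right, β cells above α cells), with filled points for adjusted p below 0.05. Peg10 and Sgce lie far below 0 on the left, and on the right Dlk1, Nnat and Plagl1 of β cells are filled and no gene of α cells is.

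The second comparison asks what the doxycycline treatment left changed in each cell type. In β cells 3 of the 9 genes were called, 1 higher (Dlk1) and 2 lower (Nnat and Plagl1), where 46.9% of all tested genes were called (23.8% higher and 23.1% lower). In α cells none of the 9 was called, where 0.127% of all tested genes were called (0.0804% higher and 0.0469% lower). The α-cell count of 0 comes from edgeR with 1173 genes at an unadjusted p under 0.05, Peg10 (0.20 ± 0.09, unadjusted p = 0.0372) and Peg3 (0.19 ± 0.07, unadjusted p = 0.0164) among them, and DESeq2 called none of the 9 either. In sorted bulk RNA, fewer cells of a type and less RNA per cell cannot be told apart.

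Dlk1 showed the largest change of the 9. In β cells of doxycycline mice the replicates had 2.67 and 3.81 CPM at ZT0, 28.8 and 7.77 at ZT4, 26.2 and 4.22 at ZT8, 12.0 and 4.30 at ZT12, 4.89 and 11.3 at ZT16, and 4.67 and 17.5 at ZT20. In β cells of control mice they had 0.473 and 0.701 CPM at ZT0, 1.58 and 2.37 at ZT4, 1.03 and 0.308 at ZT8, 0.861 and 0.459 at ZT12, 1.98 and 2.21 at ZT16, and 0.690 and 0.487 at ZT20. The lowest doxycycline library lay above the highest control library, and the spread within the doxycycline group was wide, at 10.8-fold. The log2 fold change was 3.28 ± 0.38 (SE, n = 12 per group, adjusted p = 1.19e-06), with 3.39 (adjusted p = 7.29e-04) from earlier-run libraries and 2.96 (adjusted p = 5.98e-04) from later-run libraries alone. In α cells it was -0.10 ± 0.27 (adjusted p = 0.985), at 0.108, 0.829 and 1.89 CPM in doxycycline mice and 0.397, 0.805 and 1.98 CPM in control mice. The neighbours on the same strand did not follow in β cells, where Meg3 changed by -0.01 ± 0.34, Rian by 0.22 ± 0.14 and Mirg by 0.39 ± 0.25 without passing the test. Rian passed without ZT0 (0.34, adjusted p = 0.0387), and Mirg passed without replicate 1 of ZT0 doxycycline β cells (0.52, adjusted p = 0.0296).

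Nnat fell in β cells. It had 2.96, 7.42 and 24.6 CPM in doxycycline β cells and 10.1, 24.3 and 76.8 CPM in control β cells. The groups overlapped, but the mean was lower in doxycycline mice at all 6 times, and the log2 fold change was -1.52 ± 0.23 (adjusted p = 2.62e-05). Within the runs it was -1.45 (earlier, adjusted p = 0.00226) and -1.65 (later, adjusted p = 0.00276). In α cells it was 0.14 ± 0.24 (adjusted p = 0.969). Blcap, the gene around it on the opposite strand, changed by -0.46 ± 0.07 in β cells (adjusted p = 1.39e-05), at 39.3 ± 4.31 CPM in doxycycline mice and 54.6 ± 7.59 CPM in control mice (SD, n = 12 each).

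Plagl1 fell by 0.58 ± 0.18 on the log2 scale in β cells (adjusted p = 0.0102), with the mean lower at all 6 times and an overlap of the groups at 3.37, 5.61 and 12.1 CPM in doxycycline mice and 5.60, 9.03 and 16.2 CPM in control mice. The call was lost within the later run (-0.39, adjusted p = 0.140) and with a macrophage covariate (-0.07, adjusted p = 0.878). Sgce, at 0.54 ± 0.22, did not pass in β cells (adjusted p = 0.0522), although its mean was higher in doxycycline mice at all 6 times, and it passed with DESeq2 (0.55, adjusted p = 0.0368) and on leaving out any 1 of 6 libraries, ZT4 replicate 2, ZT8 replicate 1, ZT16 replicate 1 or ZT20 replicate 2 of doxycycline mice or ZT8 replicate 1 or ZT16 replicate 2 of control mice (adjusted p down to 0.00852). Peg10 at 0.56 ± 0.28 (adjusted p = 0.112) and Peg3 at -0.18 ± 0.10 (adjusted p = 0.141) did not pass.

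The treatment effect itself differed between β and α cells for 5 of the 9 genes, where 25.5% of 16207 genes differed (12.7% with a higher and 12.8% with a lower effect in β cells). It rests on the same libraries as the 2 treatment comparisons. The effect in β cells minus that in α cells was 3.38 ± 0.47 for Dlk1 (adjusted p = 1.65e-06), -1.66 ± 0.35 for Nnat (adjusted p = 4.45e-04), -0.65 ± 0.21 for Plagl1 (adjusted p = 0.0213), 0.50 ± 0.18 for Sgce (adjusted p = 0.0344) and -0.38 ± 0.12 for Peg3 (adjusted p = 0.0197). The calls of Dlk1 and Nnat held without ZT0 and with the macrophage or stellate covariate, and within the later run Nnat stood at -1.45 (adjusted p = 0.0560). Peg3 and Sgce lost theirs without ZT0 (-0.30, adjusted p = 0.124, and 0.38, adjusted p = 0.163). With the macrophage covariate Plagl1 stood at -0.52 (adjusted p = 0.120), Peg3 at -0.37 (adjusted p = 0.0556) and Sgce at 0.37 (adjusted p = 0.185). The Sgce call was also lost with the stellate covariate (0.40, adjusted p = 0.0721) and on leaving out any 1 of 9 β-cell libraries (adjusted p up to 0.106): ZT0 replicate 1, ZT4 replicate 1, ZT12 replicate 2, ZT16 replicate 2 or ZT20 replicate 1 of doxycycline mice, or ZT0 replicates 1 and 2, ZT8 replicate 2 or ZT12 replicate 1 of control mice.

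Markers of other cells moved with the treatment in β libraries. All 15 macrophage and dendritic genes were higher in doxycycline β cells (median log2 fold change 2.25), and their summed level was 148, 866 and 1699.6 CPM in doxycycline β libraries and 58.3, 208 and 431 CPM in control β libraries. Of 8 tested stellate and fibroblast genes 4 were higher (median 1.47), with sums of 1.12, 29.7 and 398 CPM in doxycycline β libraries and 0.424, 10.8 and 53.3 CPM in control β libraries. Of 5 tested α-cell genes 4 were higher (median 1.39), with sums of 1423, 2373 and 3778 CPM in doxycycline β libraries and 348, 713 and 859 CPM in control β libraries. Gcg itself had a median of 213 CPM in doxycycline β libraries and 171 CPM in control β libraries, so other genes of the list carry most of the difference in the sum. All 5 tested δ-, PP- and ε-cell genes were higher as well (median 0.70). The part of α-cell RNA in the Sgce and Peg10 values of β cells was not tested. Of the other lists, 1 of 13 acinar, 1 of 4 endothelial and 2 of 4 ductal genes were higher and none lower. None of the genes in these lists was at 0 in all libraries of a condition. Dlk1 is also a gene of stromal precursor cells. With the stellate markers as a covariate its log2 fold change in β cells was 3.23 (adjusted p = 6.18e-06), and with the macrophage markers it was 2.41 (adjusted p = 0.00659). The library with the highest Dlk1 level (28.8 CPM, ZT4 replicate 1 of doxycycline mice) also had the highest stellate sum, 398 CPM. Dlk1 stood at 7.77 CPM in the doxycycline library with the lowest stellate sum (1.12 CPM, ZT4 replicate 2). At the next lowest sums it stood at 4.30 CPM (2.01 CPM, ZT12 replicate 2) and 17.5 CPM (3.06 CPM, ZT20 replicate 2). Doxycycline β libraries with Dlk1 at 7.77 CPM or more had macrophage sums of 864 to 1699.6 CPM. Those with Dlk1 at 4.89 CPM or less had macrophage sums of 148 to 868 CPM. The part of stromal cells and of macrophages beyond these values was not tested. With the same covariates Nnat stood at -1.58 (stellate, adjusted p = 8.39e-05) and -1.69 (macrophage, adjusted p = 0.00503).

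**Figure D3:**
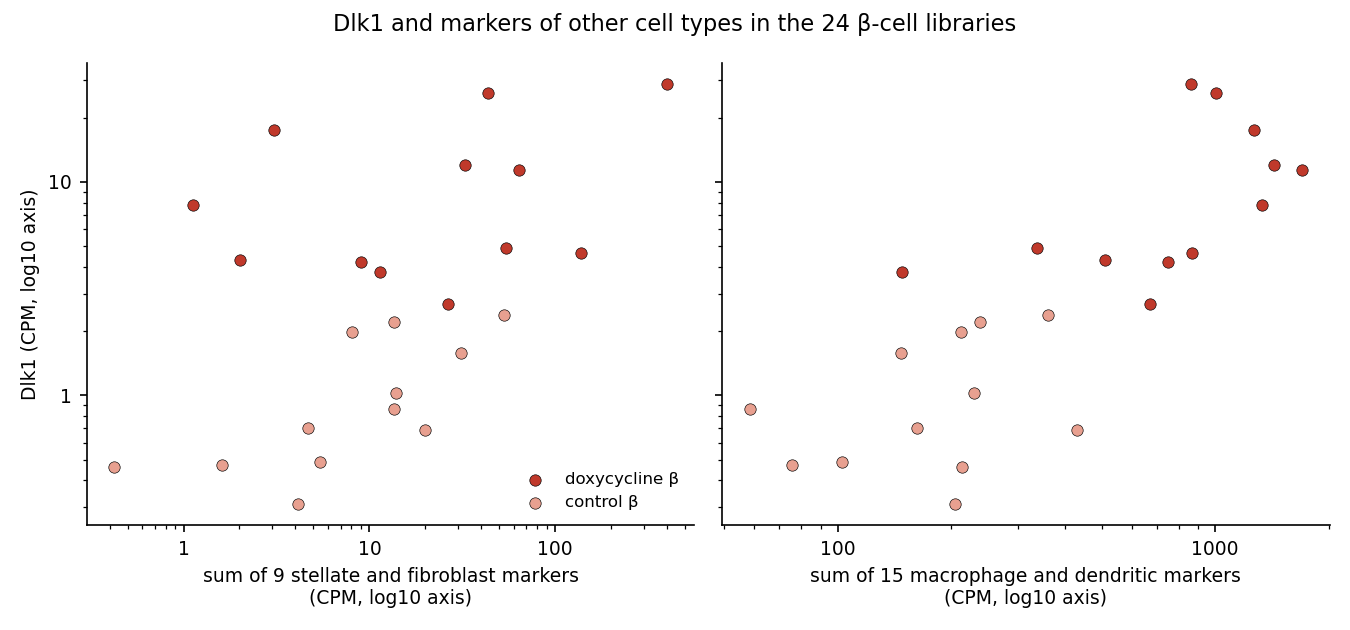
Dlk1 level in each of the 24 β-cell libraries (CPM, log10 axis) against the summed level of 9 stellate and fibroblast markers (left) and of 15 macrophage and dendritic markers (right), both in CPM on log10 axes, for doxycycline and control mice. Doxycycline libraries lie between 2.67 and 28.8 CPM of Dlk1 over the whole range of stellate sums, and 10 of the 12 lie to the right of every control library in macrophage sums.

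The third comparison asks whether the genes follow the time of day. A 24 h cosine was fitted in each condition, whose amplitude is its height above the mean at the peak, in log2 units. It was called for 1 of 8 tested genes in doxycycline β cells (11.6% of all genes), 0 of 8 in control β cells (2.17%), 2 of 8 in doxycycline α cells (2.82%) and 3 of 9 in control α cells (4.49%). At 0 of 8 the control β count comes from edgeR, with 2734 of 13302 genes at an unadjusted p under 0.05 and none of the 8 among them, and DESeq2 called none of the 8 either.

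Peg10 was rhythmic in α cells, and in β cells it failed the filter and was not tested for rhythm. Its β-cell means were highest at ZT16, at 1.18 CPM in doxycycline mice and 0.867 CPM in control mice. They rest on few counts, 10 to 58 and 2 to 48 a library. In doxycycline α cells its replicates had 106 and 113 CPM at ZT0, 111 and 121 at ZT4, 83.8 and 65.7 at ZT8, 80.8 and 60.7 at ZT12, 173 and 122 at ZT16, and 206 and 153 at ZT20. In control α cells they had 74.9 and 80.3 CPM at ZT0, 91.9 and 67.4 at ZT4, 66.6 and 66.4 at ZT8, 94.5 and 79.1 at ZT12, 164 and 149 at ZT16, and 127 and 144 at ZT20. All 4 libraries at ZT16 and ZT20 lay above all 8 others in each treatment. The amplitude was 0.64 ± 0.10 with a peak at 20.9 h in doxycycline mice (adjusted p = 0.0141) and 0.57 ± 0.08 with a peak at 18 h in control mice (adjusted p = 0.00506). The difference of rhythm between the treatments was not called (unadjusted p = 0.0164, adjusted p = 0.999). Sgce had no such course, with amplitudes of 0.10 ± 0.06 in doxycycline α cells (adjusted p = 0.566) and 0.05 ± 0.04 in control α cells (adjusted p = 0.770). As a description, the mean log2 ratio of Peg10 to Sgce was 1.62 at ZT16 and 0.62 at ZT8 in doxycycline α cells, and 1.74 at ZT16 and 0.49 at ZT8 in control α cells.

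Peg3 had a like course in α cells. It peaked at 17.9 h with an amplitude of 0.40 ± 0.08 in doxycycline α cells (adjusted p = 0.0365) and at 18.5 h with 0.37 ± 0.06 in control α cells (adjusted p = 0.00875). Means at ZT8 and ZT16 were 1149 and 2028 CPM in doxycycline α cells and 1071 and 1818 CPM in control α cells. In doxycycline β cells it peaked at 16.2 h with 0.28 ± 0.05 (adjusted p = 0.0221). That call was lost with the replicate block (0.26, adjusted p = 0.108), without the run term (0.25, adjusted p = 0.256), with time as 6 levels (adjusted p = 0.317) and within either run (adjusted p = 0.146 and 0.511). In the 5 libraries of the earlier run alone Dlk1 was called in its place (1.45, adjusted p = 0.0285), against 0.15 (adjusted p = 0.953) over all 12. In control β cells the Peg3 amplitude of 0.20 ± 0.12 was not called (adjusted p = 0.567). In β cells the difference of its rhythm between doxycycline and control was not called (adjusted p = 0.999). Plagl1, Nnat and Mirg had no called rhythm in any condition. The unadjusted p of Plagl1 was 0.0196 in doxycycline β, 0.361 in control β, 0.549 in doxycycline α and 0.0122 in control α cells. Its difference of rhythm between treatments in α cells had an unadjusted p of 0.00933 (adjusted p = 0.999). Rian was called in control α cells with 0.31 ± 0.05 and a peak at 1.51 h (adjusted p = 0.0170), and not in doxycycline α cells (0.09 ± 0.14, adjusted p = 0.908). None of the 9 genes differed in rhythm between treatments in either cell type, where edgeR called 0 of 15188 genes in β cells (708 at an unadjusted p under 0.05) and 0 of 14932 in α cells (377), and DESeq2 called 11 and 0.

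The rhythm calls rest on few libraries, and none of them passed within the later run alone. The Peg3 call in doxycycline α cells was lost on leaving out any 1 of 7 libraries (either replicate of ZT8 or ZT16, or replicate 1 of ZT4, ZT12 or ZT20, adjusted p up to 0.123), and that in doxycycline β cells on leaving out any 1 of 5 (either replicate of ZT8, or replicate 1 of ZT4, ZT16 or ZT20, up to 0.0618). Peg10 in doxycycline α cells was lost without replicate 1 of ZT20 (adjusted p = 0.0821) or replicate 2 of ZT8 (0.0656) and without the run term (0.0645), while in control α cells no left-out library ended the call. Rian was lost without replicate 2 of ZT12 (0.0691) or of ZT16 (0.0503) and without ZT0 (0.0519), with the replicate block (0.0852) and without the run term (0.366). The Peg3 call in doxycycline α cells was lost with the replicate block too (0.0522), and without the run term (0.206), and with time as 6 levels Peg3 (0.175) and Rian (0.184) lost theirs in control α cells.

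**Figure D4:**
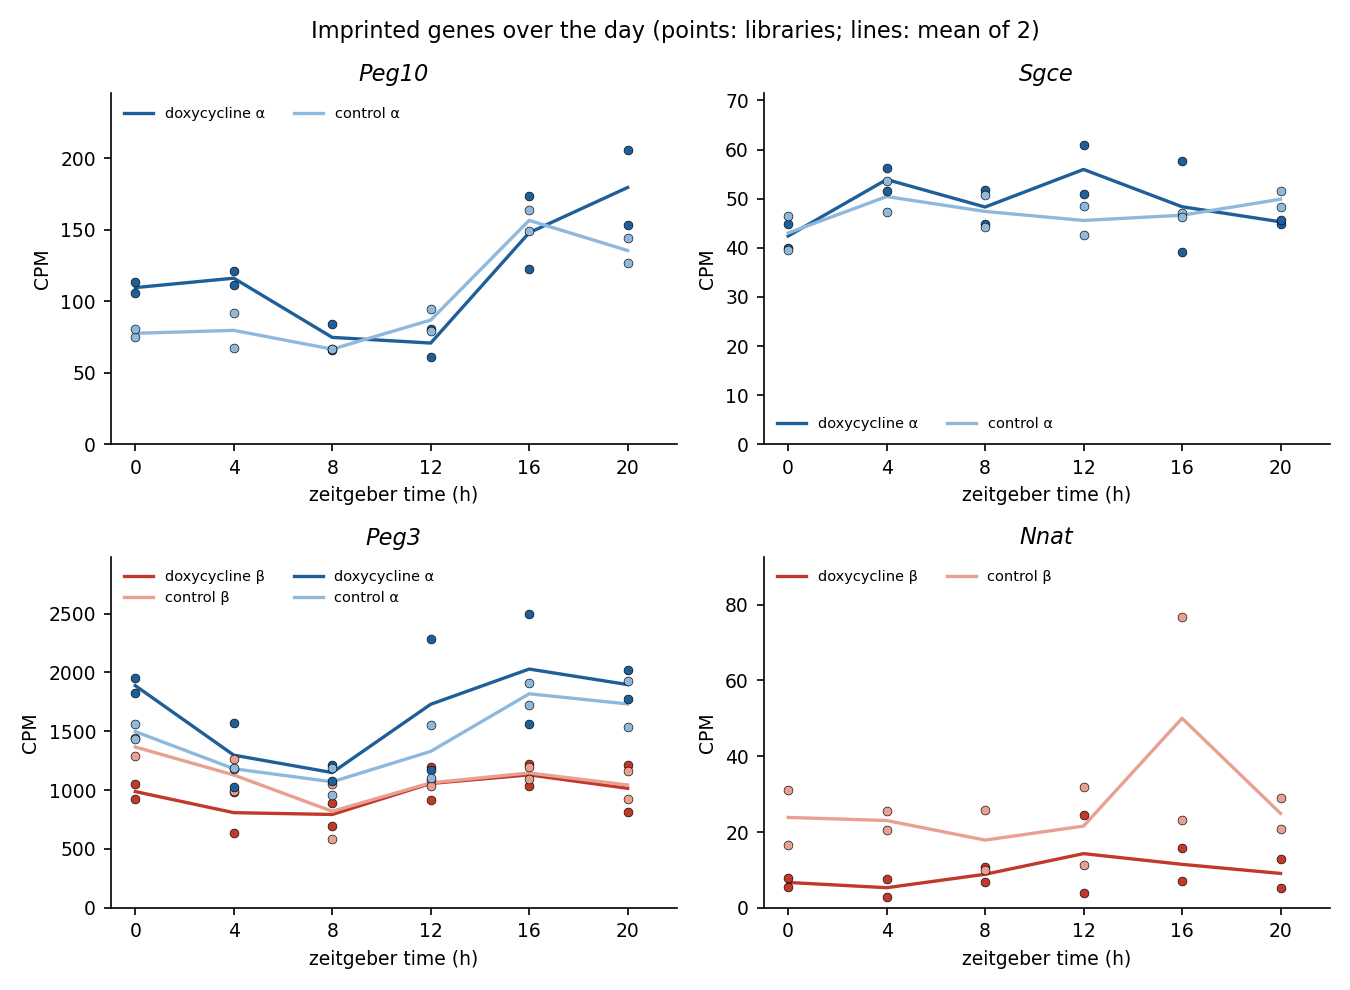
Peg10 and Sgce in α cells, Peg3 in all 4 conditions and Nnat in β cells against zeitgeber time (h), in CPM, with a point per library and a line through the mean of 2 libraries. Peg10 is highest at ZT16 and ZT20 in both treatments while Sgce stays between 39.1 and 61.0 CPM, and Nnat of doxycycline β cells lies below that of control β cells on average at each time.

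Meg3 varied more between libraries of 1 condition than between conditions. Its highest library stood 9.54-fold above its lowest in doxycycline β cells, 11.5-fold in control β cells, 20.3-fold in doxycycline α cells and 16-fold in control α cells. For Rian the same ratio was 2.61, 3.13, 2.49 and 1.87. No condition showed a called 24 h rhythm of Meg3, with amplitudes of 0.56 to 1.17 whose adjusted p ran from 0.356 to 0.665.

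Meg3 levels of β and α cells went together across libraries of the same time, treatment and replicate number. Libraries of β and α cells with the same time, treatment and replicate number had 305 and 433 CPM (ZT0 doxycycline replicate 2), 293 and 461 CPM (ZT16 doxycycline replicate 2) and 296 and 319 CPM (ZT0 control replicate 1). At the low end they had 32.0 and 22.8 CPM (ZT4 doxycycline replicate 2) and 28.4 and 25.4 CPM (ZT16 control replicate 2). In 22 of 24 such pairs the 2 cell types lay within 2-fold. The clear exception was ZT0 control replicate 2, with 257 CPM in β cells and 19.9 CPM in α cells. Over the 24 pairs Pearson's r of log2 CPM was 0.70 (permutation p = 1.2e-04, adjusted over 9 genes p = 0.00108) and Spearman's rho 0.70 (permutation p = 1.8e-04, adjusted p = 0.00162). It was 0.79 in the 10 pairs of the earlier run, 0.71 in the 14 of the later run, 0.87 in the 20 pairs without ZT0 and 0.56 (permutation p = 0.00642) without the 2 pairs farthest from the median of α cells. The median r over 16193 genes was 0.36, and 93.8% of them had a lower r than Meg3. Rian (r = 0.65, rho = 0.63, adjusted permutation p = 0.00246 and 0.00544) and Mirg (r = 0.66, rho = 0.50, adjusted permutation p = 0.00246 and 0.0310) also matched across the pairs. Rian stood at r = 0.05 in earlier-run pairs and 0.71 in later-run pairs, and Mirg at 0.48 and 0.73, with r = 0.35 (permutation p = 0.117) for Mirg without the 2 farthest pairs. Peg3 (r = 0.52, rho = 0.41, adjusted permutation p = 0.0186 and 0.0857) and Peg10 (r = 0.50, rho = 0.57, adjusted permutation p = 0.0220 and 0.0135) had a lower r and fell to 0.38 (permutation p = 0.0789) and 0.33 (permutation p = 0.137) without 2 pairs. These tests are against an r of 0, and the share of all genes with a lower r was 88.7% for Rian, 89.6% for Mirg, 72.9% for Peg3 and 70.1% for Peg10. Sgce, Dlk1, Nnat and Plagl1 passed by neither measure. Such pairs also share time, treatment and run, which were neither removed nor held fixed in the permutations. The part of the replicate alone in r was not tested. The labels do not say whether paired libraries came from the same animals.

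Within conditions Mirg tracked Meg3. Across the 12 libraries Pearson's r was 0.96 in doxycycline β cells, 0.89 in control β cells, 0.89 in doxycycline α cells and 0.81 in control α cells, with adjusted permutation p of 1.6e-04, 4.8e-04, 0.00212 and 0.00344 over 16 relations. Spearman's rho was 0.97, 0.90, 0.80 and 0.83 (adjusted permutation p = 3.2e-04, 0.0016, 0.00888 and 0.00716). In the 7 later-run libraries of each condition r was 0.99, 0.90, 0.88 and 0.82, and the 5 of the earlier run are too few. Without the 2 libraries farthest from the median of Meg3, r was 0.95, 0.80, 0.64 and 0.75. Meg3 and Rian, which lie closer to each other than Rian and Mirg do (62.9 kb between starts, against 126 kb), tracked in doxycycline β cells (r = 0.89, rho = 0.86, adjusted permutation p = 9.6e-04 and 0.00283) and not past the threshold in control β cells (0.55), doxycycline α cells (0.53) and control α cells (0.08). Rian and Mirg gave r of 0.82, 0.70, 0.65 and 0.28 in the same order of conditions, and both measures passed in doxycycline β cells alone. Peg10 and Sgce, although both were far higher in α than in β libraries, gave r of -0.15 to 0.26 within conditions. The span of Meg3 overlaps that of Gm26906 on the opposite strand, and reads of any shared exon could not be told apart without strand. Gm26906 averaged 248 counts a library against 5059 for Meg3.

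**Figure D5:**
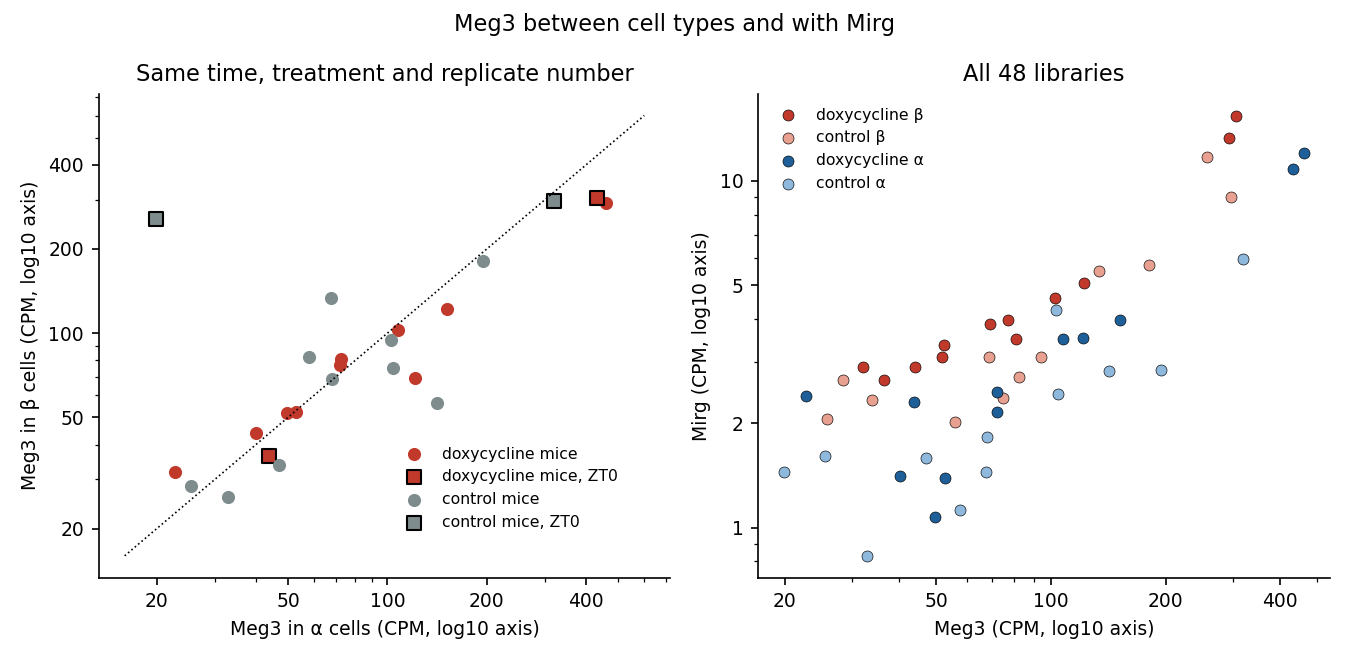
Left, Meg3 in β cells against Meg3 in α cells (CPM, log10 axes) for the 24 pairs of libraries with the same time, treatment and replicate number, with squares for ZT0 and a dotted line of equal level. Right, Mirg against Meg3 (CPM, log10 axes) in all 48 libraries by condition; 1 control pair of ZT0, at 257 and 19.9 CPM, lies far from the line, and Mirg is higher where Meg3 is higher in every condition.

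Other imprinted genes were counted in the same way. Of 56 more that the tables hold, 42 were tested between β and α cells of doxycycline mice (15 higher and 20 lower in β cells) and 40 in control mice (16 higher and 17 lower). Over all genes 71.2% and 71.4% were called. In β cells of control mice Rasgrf1, a Ras exchange factor, was higher by 6.78 ± 0.19 on the log2 scale, at 174 CPM in β cells and 1.56 CPM in α cells, and the growth factor Igf2, the partner of H19, by 3.38 ± 0.26. Tssc4 (1.91 ± 0.06) and Osbpl5, a lipid transfer protein (1.48 ± 0.07), followed. Grb10, an adaptor that dampens insulin receptor signalling, was lower by -3.82 ± 0.09, at 15.4 CPM in β cells and 219 CPM in α cells. Asb4, a neighbour of Peg10 in the same imprinted region, was lower by -3.39 ± 0.18, the docking protein Gab1 by -2.70 ± 0.12 and Zim1, a zinc finger gene beside Peg3, by -2.40 ± 0.15. Several genes of this list are known to be imprinted in placenta or brain and not in every tissue.

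With doxycycline 12 of 41 such genes were higher and 15 lower in β cells, and 0 of 43 were called in α cells, where 46.9% of all genes were called in β cells (23.8% higher and 23.1% lower) and 0.127% in α cells. In β cells Inpp5f, a phosphoinositide phosphatase, changed by 0.85 ± 0.13, H13, the signal peptide peptidase, by 0.76 ± 0.09, Pon3 by 0.68 ± 0.06 and the tetraspanin Cd81 by 0.66 ± 0.10. Rasgrf1 changed by -1.18 ± 0.11, at 79.2 CPM in doxycycline β cells and 174 CPM in control β cells, and Zim1 by -1.10 ± 0.14. The median over the list was 0.01, against -0.01 over all genes. Of 8 genes listed for the setting and keeping of imprints, 7 were tested in β cells. Of these 2 rose and 3 fell with doxycycline, against 46.9% of all genes called in either direction. Dnmt1, the maintenance methyltransferase, rose by 0.22 ± 0.08 (adjusted p = 0.0248), and the de novo methyltransferase Dnmt3a fell by 0.32 ± 0.11 (adjusted p = 0.0221). None of the 7 tested in α cells was called.

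By Pearson correlation of log2 CPM over the 24 group means, given as a description, the genes most like Peg10 were Grb10, Rab3c and Sstr2 (r = 0.994, 0.992 and 0.992), and those most like Sgce were Gcg, Galnt13 and Smarca1 (r = 0.997, 0.996 and 0.996). These means share libraries, depth and the contrast of the 2 cell types. Dlk1 was most like Tgfbr2, Zeb2 and Lgals1 (r = 0.94, 0.94 and 0.93), Nnat most like Zfp654, Ttll7 and Slc35b4 (0.98, 0.98 and 0.97) and Plagl1 most like Ptbp1, Appl1 and Slitrk1 (0.94, 0.93 and 0.93). Meg3 was most like Gm26906, which overlaps it, Fam193b and Lime1 (0.98, 0.97 and 0.96), and Mirg most like AI480526, Cfap74 and Lrrc45 (0.90, 0.89 and 0.88). For Rian they were Clk3, Rtl1, an imprinted gene of the same cluster, and Glb1l (0.78, 0.77 and 0.75), and for Peg3 Spice1, Gpatch8 and Zfp369 (0.91, 0.90 and 0.90).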

How the data were processed

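Per the labels' protocols, 300 ng of polyA RNA from sorted cells went into each TruSeq library. That kit keeps no strand information. The submitters' processing notes name bcl2fastq, STAR and GRCm38; the counting program is not given in the sources used here. The authors deposited estimated counts per gene and RPKM, with one table of each per run. Deposited RPKM equals the count divided by gene length and column total. Whole values up to 20 were even in 99.7 to 100% of cases, so a low count steps by 2. All 48 columns were matched to labels by title.

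The deposited estimated counts were rounded. Genes passing filterByExpr (minimum count 10, total 15) entered edgeR 4.0.16 (R 4.3.3), quasi-likelihood F test, with TMM scaling, with Benjamini-Hochberg adjustment over all genes tested and a threshold of 0.05. Comparisons of cell type and of treatment had terms for run and for time (6 levels), the difference of treatment effects over all 48 libraries with these terms per cell type, and rhythms with a 24 h cosine and sine plus run. The SE is the log2 fold change divided by the square root of F, or for amplitudes comes from the delta method. CPM and RPKM are descriptive; log2 CPM has a prior count of 2. Permutation tests were two-sided with 100000 draws.

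Alternatives were DESeq2 1.42.0, RLE scaling, no filter, halved counts, no run term, each run alone, marker covariates, a block for each time and replicate number, and leaving out each library. Leaving out ZT0 was added after seeing the data. The genes and gene lists were chosen with earlier results of these data known. All 10 genes were looked up in each comparison, though not every value that was not called is printed. Of the other lists, up to 4 genes per direction with the largest called change and a mean of at least 10 CPM were named. The 3 genes most like each tested gene were named too, and a few genes were left out. Simulated counts with 200 changed genes were used to check each kind of test, though not every comparison, at a fixed dispersion and without a run effect.

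Same-numbered α and β libraries deviated together at all 6 times in doxycycline mice (r = 0.107 to 0.419 over genes after time and run). In control mice they did so at all times but ZT20 (0.0726). The main fits held no term for these pairs. Pairs entered as the block among the alternatives, and the correlations across cell types used same-numbered libraries of both treatments.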

Additional observations from a re-analysis of the deposited data

Results flagged for a closer look

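The effect of doxycycline differed between β and α cells for 5 of the 9 tested imprinted genes, by a test of the difference itself (edgeR, adjusted over 16207 genes). The log2 difference, β minus α, was 3.38 for Dlk1, -1.66 for Nnat, -0.65 for Plagl1, 0.50 for Sgce and -0.38 for Peg3. Of all genes, 25.5% differed. Sgce passed for the difference and not in either cell type alone, and so did Peg3. Sgce has 8 to 72 counts in a β library.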

How the results depend on the processing

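Between β and α cells 5 to 7 of the 9 genes were called under every alternative in both treatments, and with doxycycline in β cells 2 to 4, without a change of sign in any called gene. None of the 9 was called with doxycycline in α cells under any alternative. For the difference of the treatment effect between cell types, 5 calls became 2 without the run term, in the earlier run, in the later run and with the macrophage covariate, 3 without ZT0 and 4 with the stellate covariate; leaving out 1 library gave 4 to 5. For rhythms, 3 calls in control α cells became 4 with DESeq2, 2 with the replicate block, without the run term and without ZT0, 0 in either run alone and 1 with time as 6 levels (2 to 3 with 1 library left out). In doxycycline α cells 2 calls became 0 without the run term and in the later run, and 1 in the earlier run, with the replicate block and with time as 6 levels (0 to 2 with 1 library left out). In doxycycline β cells 1 call became 2 with DESeq2 and 0 without the run term, in the later run, with the replicate block and with time as 6 levels (0 to 1 with 1 library left out), and the 1 call of the earlier run was Dlk1, not Peg3. In control β cells and for differences of rhythm 0 calls stayed 0. A single run holds 5 or 7 libraries a condition, which limits its rhythm tests. With the replicate block of time and number, 6 genes were called between cell types in control mice and 7 in doxycycline mice, 3 with doxycycline in β cells, 0 in α cells and 5 for the difference between them. Doxycycline and control libraries of 1 number share only a number (r from -0.481 to 0.180 after time and run). The count of all genes called with doxycycline in α cells, 19, became 125 with DESeq2, 132 in the earlier run, 56 with no filter and 0 in the later run. Counts over all genes also moved: with doxycycline in β cells 7122 became 4638 in the earlier run, 3747 in the later run and 3606 with the macrophage covariate, and for the difference between cell types 4126 became 2139 and 1243 in the single runs. Rhythm counts over all genes moved most, with 1 library left out to 112 to 2317 in doxycycline β cells, 20 to 893 in control β cells, 41 to 560 in doxycycline α cells and 179 to 1141 in control α cells. With DESeq2 they were 3014, 1317, 1178 and 1518, and with time as 6 levels 0, 33, 14 and 73. The cause was not tested. Depth limits H19, and Peg10 and Sgce in β cells (2 to 72 counts a library).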
